A study of Mus musculus with 474 samples.

Results

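Casp1 was detected in both daughters of most mouse haematopoietic stem cell (HSC) divisions and in neither daughter of a smaller share, and these divisions were compared across all other genes. Of the divisions with 1 high and 1 low daughter sequenced, 65.5% were Casp1-positive, 93 in sequencing run 4 and 40 in run 5, with Casp1 at 10 CPM or more in both sisters. CPM is the count of a gene divided by the cell's total over all genes, scaled to 1000000 counts. Another 22.2%, or 45 divisions with 90 cells, were Casp1-negative, with Casp1 under 1 CPM in both sisters, 31 in run 4 and 14 in run 5. The other 14 mixed divisions (6.90%) had 1 sister at 10 CPM or more and 1 under 1 CPM, and 11 intermediate divisions (5.42%) met none of these definitions. All divisions were 20, 17, 12, 11, 19, 27, 33, 38 and 26 in experiments 60, 68, 69, 72, 73, 74, 75, 76 and 77, and 68 cells had no sequenced sister of the other label.

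Every cell was wild type, from bone marrow of C57BL/6JRj males aged 12 to 19 weeks, so positive and negative divisions share strain, sex, genotype and culture. The stem cells divided once in vitro under time-lapse imaging, and each daughter was picked by micromanipulation and sequenced with Smart-seq2, a plate-based full-length RNA method. High and low mark the daughter that received more or fewer lysosomes than its sister. The 9 culture experiments were 60, 68, 72 and 73 in run 5 and 69, 74, 75, 76 and 77 in run 4. Nothing in the labels says that experiments used separate animals, so p-values measure the spread between experiments, which may be technical.

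Casp1 encodes caspase-1, the protease at the core of inflammasomes. Sensors of the NLR family or Aim2 detect danger signals and recruit pro-caspase-1, often through the adaptor Pycard (ASC). Active caspase-1 matures the cytokines interleukin-1β and interleukin-18 and cleaves gasdermin D (Gsdmd), which opens pores in the plasma membrane. In mouse the gene lies in a caspase cluster beside Casp4, which encodes caspase-11, the intracellular sensor of lipopolysaccharide, and Casp12.

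Casp1 (ENSMUSG00000025888) occupies chr9:5298517-5307265 on the plus strand of GRCm38, Casp4 starts 1563 bases after its end and Casp12 starts 38165 bases after it. The 250 bases before each RefSeq start are shown because Casp1 split the divisions and its neighbours are compared beside it. They are from the RefSeq promoter table of GRCm38.p6, plus strand, 5′ to 3′, at chr9:5298267-5298516 for Casp1, chr9:5308599-5308848 for the first of the Casp4 entries and chr9:5345226-5345475 for Casp12, with matches to 3 searched motifs in capitals.
Casp1: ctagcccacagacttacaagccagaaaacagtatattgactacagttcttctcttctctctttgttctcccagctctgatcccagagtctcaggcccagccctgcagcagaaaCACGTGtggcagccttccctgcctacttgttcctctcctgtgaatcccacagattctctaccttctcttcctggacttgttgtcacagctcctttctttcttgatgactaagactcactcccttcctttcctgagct
Casp4: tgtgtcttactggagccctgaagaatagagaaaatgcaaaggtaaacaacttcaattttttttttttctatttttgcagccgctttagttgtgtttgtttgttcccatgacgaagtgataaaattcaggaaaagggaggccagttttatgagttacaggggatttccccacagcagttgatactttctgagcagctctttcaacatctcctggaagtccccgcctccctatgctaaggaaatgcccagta
Casp12: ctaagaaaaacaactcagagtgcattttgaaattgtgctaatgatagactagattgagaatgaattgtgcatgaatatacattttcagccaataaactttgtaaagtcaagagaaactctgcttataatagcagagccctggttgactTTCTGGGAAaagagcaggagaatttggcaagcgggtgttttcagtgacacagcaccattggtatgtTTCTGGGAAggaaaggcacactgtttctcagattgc
Positions count from the RefSeq start, which for Casp4 and Casp12 lies inside the GENCODE gene used for the distances above, so these 2 windows reach into that annotation's gene. Both strands were searched, and no matches overlapped. The Casp1 window held CACGTG, the E-box letters, once, from position -137 relative to the start, and 6.02% of 32851 promoter windows of the same length hold it. The Casp12 window held TTCNNNGAA, the letters of a STAT site, at positions -102 and -36, and 7.02% of windows hold that motif. The letters of the TATA box, TATAAA, found in 12.4% of all windows, were in none of the 3, and the Casp4 window held none of the 3 motifs. The Casp1 and Casp12 windows had 1 CpG each and the Casp4 window 3, against a median of 6 over all windows.

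Casp1 itself chose the classes, so its levels are a description. In positive cells it ran from 10.8 CPM through a median of 66.5 CPM to 413.3 CPM, and in the 90 negative cells 89 had no Casp1 count and 1 had a single count, at 0.984 CPM. Summed over cells, positive divisions held 18412 Casp1 counts in 228262912 counts on genes, and negative divisions 1 in 69462379. In the negative cell with the fewest counts, 111832, a single count would have been 8.94 CPM, so a low level could have gone unseen in such cells. Across all paired cells, 70.9% were at 10 CPM or more, 26.1% were under 1 CPM and 12 cells lay between. At the edges, the weakest positive divisions had 10.8, 12.0 and 12.0 CPM in their lower sister, the nearest intermediate division had 9.54 CPM there, and the weakest division that was not negative had 1.04 CPM in its higher sister.

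**Figure D1:**
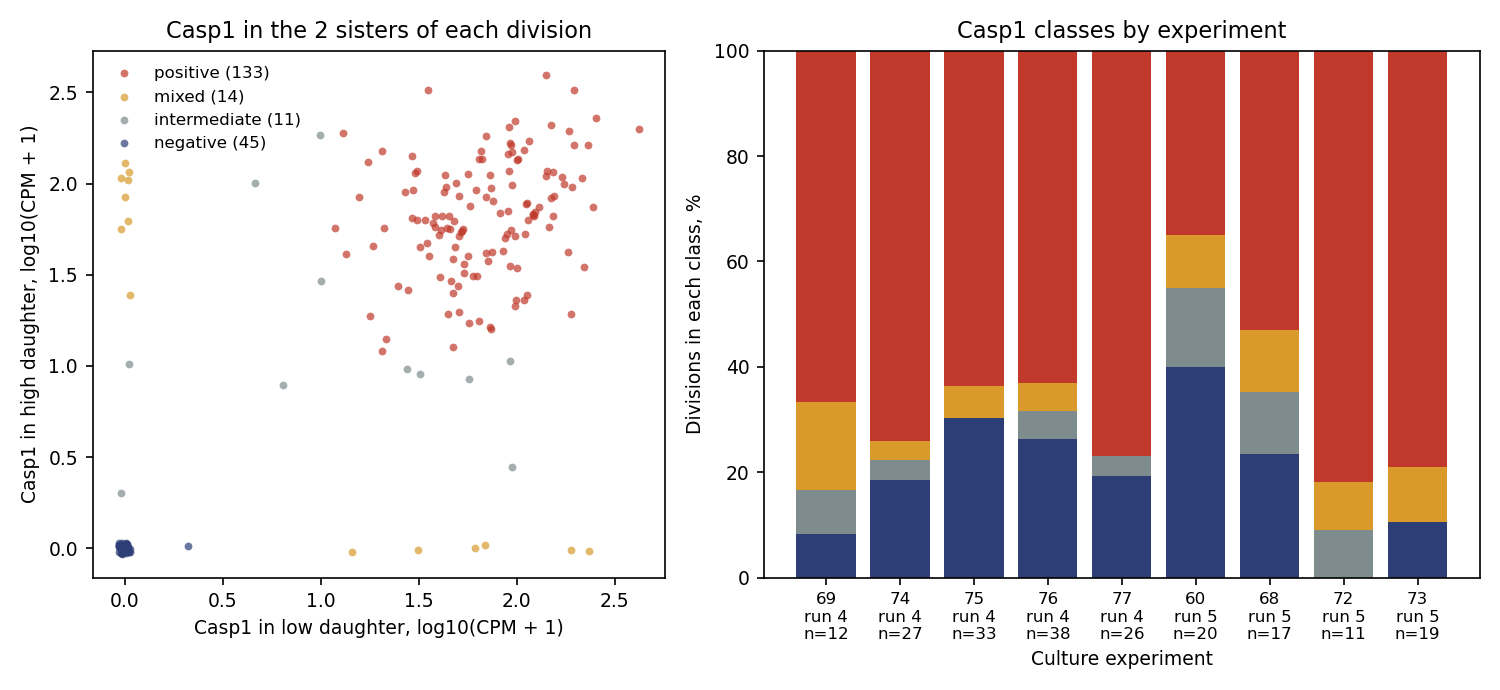
Left, Casp1 in the low-lysosome daughter (x axis) and the high-lysosome daughter (y axis) of all divisions as log10(CPM + 1), with small random shifts so that points at 0 can be seen and colours for the 4 classes. Right, the share of divisions in each class for the 9 experiments, positive on top and negative at the bottom, with n the number of divisions. The positive divisions form a cloud away from both axes, the 45 negative divisions sit at the origin apart from 1 cell at 0.984 CPM, and the positive share lies between 7 of 20 in experiment 60 and 9 of 11 (81.8%) in experiment 72.

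Within positive divisions the level of Casp1 still varied. The lower sister had a median of 43.5 CPM and the higher sister 91.6 CPM, with a median ratio of 1.79 between them. In 85 positive divisions the sisters were within 2-fold of each other, and in 19 they were more than 4-fold apart. On the log2 scale the SD over positive cells was 1.05 and the SD of the difference between sisters 1.27, with Pearson's r of 0.28 between sisters as a description over all positive divisions, which share experiments and plates. The high daughter was above the low one in 67 positive divisions, and the medians were 65.93 CPM in high daughters and 66.98 CPM in low daughters. Experiment medians of positive cells went from 41.2 CPM in experiment 69 to 113.3 CPM in experiment 77.

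Positive divisions made up 65.5% of all divisions (95% exact binomial interval 58.54 to 72.03%) and negative divisions 22.2% (16.7 to 28.5%). These intervals cover counting error only. In run 4 the positive share was 68.4% and the negative share 22.8%, and in run 5 the positive share was 59.7% and the negative share 20.9%. Over the 9 experiments the positive share had a median of 66.7% and the negative share ran from 0% through 19.2% to 8 of 20 divisions in experiment 60. Experiment 72 had 9 positive and no negative division, which allows a negative share of up to 28.5%, so it entered no comparison of the classes. Experiment 69 had 8 positive and 1 negative division and experiment 73 had 15 positive and 2 negative. The medians of several gene lists are given without them as well. Among the 68 cells without a sequenced sister, 38 had 10 CPM or more and 28 were under 1 CPM.

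In mixed divisions the Casp1-positive sister was the high-lysosome daughter in 8 of 14 (57.1%, 95% exact binomial interval 28.9 to 82.3%). An exact two-sided sign-flip test over 8 experiments gave p = 0.69. Experiments 69 and 76 were split evenly between high and low, so a sign flip leaves them unchanged. The smallest p this test can give is therefore above the 0.0078 possible when all 8 experiments are uneven. The lysosome label, which the class definition did not use, therefore showed no detectable preference at this number of divisions.

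The depth of the cells was similar in both classes, with a median of 859103.5 counts in positive and 756081.5 in negative cells, in a range from 76735 to 2444858 over all cells of the series. Both classes carried HSC transcripts. Mecom, an HSC transcription factor, had a count in 100% of positive and 100% of negative cells, Hlf, another, in 99.6% of positive cells and 100% of negative cells, and Procr, which encodes the surface receptor EPCR, in 86.5% of positive cells and 72 of 90 negative cells. Some genes that nearly every cell uses, such as B2m and Cox4i1, are listed at 0 in every cell used, so a value of 0 is not read as absence for them.

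Library measures, 7 in number, are given per experiment because a class set by detection of a gene could follow them. Detected genes per cell averaged 9838 ± 274.9 in positive divisions and 9645 ± 466.3 in negative divisions (SD, n = 8 experiments), higher in 7 of 8 experiments, with p = 0.18 in the exact two-sided sign-flip test. The log2 spike-in share differed by -0.21 ± 0.27 (lower in 7 of 8 experiments, exact p = 0.063, adjusted over 7 measures p = 0.25). The G2/M score, the mean log2(CPM + 1) of 34 mitosis genes, was 4.76 ± 1.004 in positive and 3.74 ± 1.17 in negative divisions (higher in 6 of 8, exact p = 0.070, adjusted p = 0.25). Its difference of 1.02 was 0.57 without experiment 69. The G1/S score was 6.45 ± 0.46 in positive and 6.06 ± 0.76 in negative divisions (higher in 6 of 8, exact p = 0.21), and its difference of 0.39 was 0.61 without experiment 69. Differences were 0.02 in log2 total counts (exact p = 0.81), -0.01 percentage points in the share of mitochondrial counts (exact p = 0.88) and -0.05 in that of ribosomal protein genes (exact p = 0.72). None of the 7 measures passed, but the smallest exact p that 8 experiments can give is 0.0078. A single measure at that p would still miss 0.05 after adjustment over 7 measures, so these tests could hardly detect a difference in 1 measure.

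**Figure D2:**
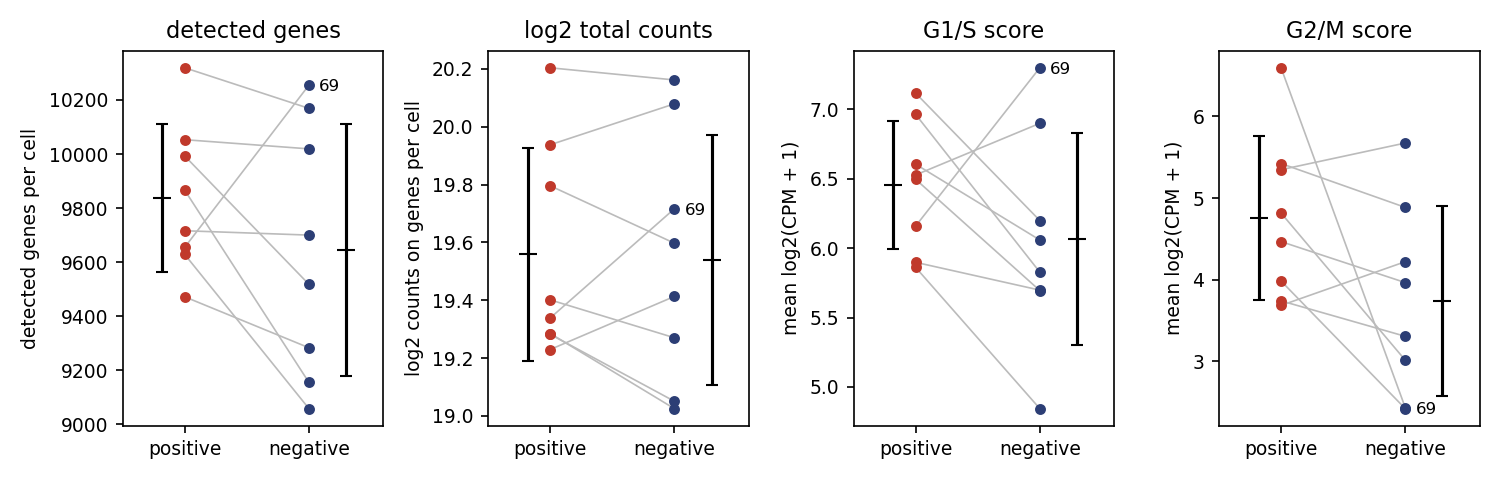
Detected genes, log2 total counts, G1/S score and G2/M score per experiment (y axes, units on each) in positive (left, red) and negative (right, blue) divisions, with lines joining the same experiment and bars for mean ± SD over 8 experiments. The label 69 marks the experiment with 1 negative division, whose G2/M score is 6.597 in positive and 2.43 in negative divisions, while most other experiments differ less.

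Outside Casp1, no gene passed edgeR or limma voom between the classes when the experiment was the replicate. Counts were summed per experiment and class, and edgeR's quasi-likelihood test with experiment as block was run on 12193 genes. The count past Benjamini-Hochberg adjustment at 0.05 was 0 (0.0% of those tested, smallest adjusted p 0.62). At an unadjusted p under 0.05 there were 546 genes (4.48%), with 3.08% of the tested genes higher and 1.4% lower in positive divisions. On the same sums limma voom passed 0 genes (0.0%) with 711 at an unadjusted p under 0.05 (5.83%), and DESeq2 passed 21 (0.172%) with 868 at that level (7.12%). For 8365 genes (68.6%) the 95% interval of the edgeR difference lay within 2-fold in both directions. In 0.861% of genes all 8 experiments had the same direction, and in 0 genes (0.0%) did the experiment levels of the classes not overlap. The median log2 difference over all genes was 0.05 (0.07 without TMM factors).

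**Figure D3:**
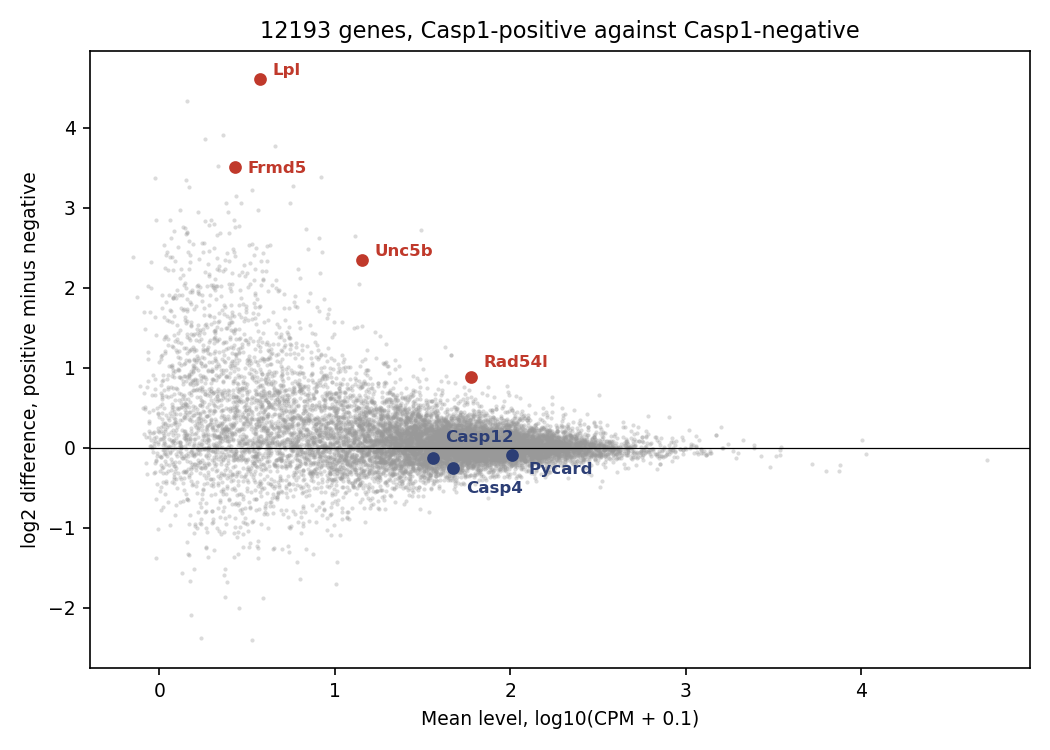
Log2 difference, positive minus negative (y axis), against mean level as log10(CPM + 0.1) (x axis) for 12193 genes in the sums per experiment. Large differences are among weakly expressed genes such as Lpl (4.61) and Frmd5 (3.51), and Casp4, Casp12 and Pycard (blue) lie near 0 at -0.26, -0.13 and -0.09.

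A second fit kept the divisions apart, with sister counts added, and tested 11725 genes with a count in at least 20% of cells of both classes together. Its p-values count divisions of the same culture as independent. A single gene passed (0.00853%), Lpl, which encodes lipoprotein lipase, the enzyme that releases fatty acids from circulating triglycerides. At an unadjusted p under 0.05 there were 567 genes (4.84%), with 2.21% of the tested genes higher and 2.63% lower. The 95% interval lay within 2-fold for 9264 genes (79.01%).

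Lpl (chr8:68880491-68907448, plus strand) had 2.09, 6.56 and 12.5 CPM as the lowest, median and highest of 8 experiments in positive divisions, against 0, 0.216 and 4.02 CPM in negative divisions. It was a weakly expressed gene that was higher in positive divisions in 8 of 8 experiments, although the ranges overlapped through experiment 76, where negative divisions had 4.02 CPM and positive divisions 8.47 CPM. A count of Lpl was found in 77 positive cells (28.9%) and 8 of 90 negative cells (8.89%). With both classes together it was in 23.9% of cells, so it passed the 20% filter of the division fit only through positive cells. The call over divisions therefore depends on that filter. With genes in 5% of cells admitted, the division fit called 0.797% of genes, and 95.97% of these were in under 20% of cells. Lpl was rarely shared by sisters as Casp1 was: 13 positive divisions had a count in both sisters, 51 in 1 and 69 in neither, against 1, 6 and 38 of 45 negative divisions. Over divisions the log2 difference was 3.47 ± 0.66 (SE, edgeR quasi-likelihood test, adjusted p = 0.0049). It was 3.88 with cell cycle scores in the model (edgeR adjusted p = 0.00024) and 3.55 with depth and detected genes in it (edgeR adjusted p = 0.00083). In the sums per experiment it was 4.61 ± 0.79, with edgeR adjusted p = 0.62. DESeq2 on the same sums called it, with an adjusted p of 3.23e-06. Over divisions the edgeR call was lost in each run alone and with no experiment block. The RefSeq promoter table used here gave no entry for Lpl.

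The other genes with the smallest p in the sums did not pass in edgeR, and their values follow as a description. Rad54l, a DNA helicase of homologous recombination (chr4:116094264-116123690), averaged 76.4 ± 10.3 CPM in positive and 42.7 ± 15.8 CPM in negative divisions (SD, n = 8 experiments), higher in 8 of 8, with a log2 difference of 0.88 ± 0.16 (edgeR adjusted p = 0.62; DESeq2 adjusted p = 0.00045). Paxip1, which encodes the DNA damage response protein PTIP, had 159.7 CPM in positive and 116.7 CPM in negative divisions, with a log2 difference of 0.43 ± 0.08 and higher values in 8 of 8 experiments. Shmt1, an enzyme of folate one-carbon metabolism, had 98.1 CPM in positive and 67.6 CPM in negative divisions and was higher in 7 of 8. Cd276, which encodes the B7-H3 surface protein, had 41.8 CPM in positive and 21.5 CPM in negative divisions. Slfn9 had 60.6 CPM in positive and 36.1 CPM in negative divisions, and Fkbp5, a co-chaperone of steroid receptors, had 119.4 CPM in positive and 85.1 CPM in negative divisions. In the fit over divisions the edgeR adjusted p was 0.989 for Rad54l, 0.895 for Paxip1 and Shmt1 and 0.9998 for Cd276.

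Another 4 genes near the top were Frmd5, Unc5b, Gli3 and Zbtb16. Frmd5 had 4.59 ± 3.84 CPM in positive and 0.598 ± 0.866 CPM in negative divisions. It had a count in 25.6% of positive cells and 13.3% of negative cells. The difference over divisions was 2.76 ± 0.61 and missed the threshold (edgeR adjusted p = 0.071). With both classes together Frmd5 was in 22.5% of cells, so it passed the detection filter of the division fit only through positive cells. Its p over divisions therefore depends on that filter and is given as a description. Unc5b, a netrin receptor, had a median of 5.19 CPM over experiments in positive and 0.565 CPM in negative divisions, with a count in 33.1% of positive cells and in 27 of 90 negative cells. Gli3, a transcription factor of hedgehog signalling, had medians of 14.4 CPM in positive and 0.476 CPM in negative divisions. Zbtb16, the transcription factor PLZF, was detected more widely, in 71.1% of positive cells and 57.8% of negative cells. It had medians of 26.99 CPM in positive and 16.3 CPM in negative divisions and was higher in 8 of 8 experiments. In the fit over divisions the edgeR adjusted p was 0.766 for Unc5b and Gli3 and 0.9998 for Zbtb16. The sums of positive divisions hold 7 to 24 divisions each and those of negative divisions 1 to 10, and for Frmd5, Unc5b and Gli3, seen in a minority of cells, the negative values rest on few cells.

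Among genes with lower values in positive divisions, several had small differences. Arhgap18, a GTPase-activating protein, had 120.5 CPM in positive and 154.7 CPM in negative divisions. It was lower in 8 of 8 experiments, though by only -0.00044 on the log2 scale in experiment 68. The log2 difference was -0.37 ± 0.08 in the sums (edgeR adjusted p = 0.98, DESeq2 adjusted p = 0.022), and over divisions the edgeR adjusted p was 0.9998. Fam193a was lower in 8 of 8 (-0.37 ± 0.09), as was Dnajb1, a heat shock co-chaperone (-0.35 ± 0.11). Sec16a, a scaffold of endoplasmic reticulum exit sites, was lower in 7 of 8 (-0.36 ± 0.09). Phf2os1 was lower in 8 of 8 (-1.59 ± 0.43) at 1.09 CPM in positive and 3.37 CPM in negative divisions. It is an antisense gene, and since no strand setting is given, its reads cannot be told apart from those of its partner.

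The nearest genes to Casp1 did not differ detectably with it. Casp4 had 18.5, 45.7 and 58.2 CPM as the lowest, median and highest of 8 experiments in positive divisions, against 35.1, 47.8 and 75.8 CPM in negative divisions. The ranges overlapped, and positive divisions were higher in 3 of 8 experiments. The log2 difference was -0.26 ± 0.16 (95% interval -0.61 to 0.09, edgeR adjusted p = 0.98) in the sums and -0.20 ± 0.18 over divisions. Casp12 had 18.7, 34.5 and 44.1 CPM in positive divisions, against 20.6, 39.3 and 50.7 CPM in negative divisions, again overlapping, and differed by -0.13 ± 0.15 (95% interval -0.45 to 0.18, edgeR adjusted p = 0.98). Casp4 was detected in 92.9% of positive cells and 85 of 90 negative cells (94.4%), and Casp12 in 87.6% of positive cells and 84.4% of negative cells. A Casp4 count was present in at least 1 sister of all 45 negative divisions, and 0 positive divisions lacked it in both sisters.

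Within 1000000 bases of Casp1 the annotation holds 16 other genes, of which 8 had a count in at least 5% of cells. Pdgfd, which encodes a platelet-derived growth factor, had 53.4 ± 19.99 CPM in positive and 51.3 ± 35.7 CPM in negative divisions, with a log2 difference of 0.29 ± 0.34. Its log2 difference (CPM plus 1) was 3.42 in experiment 69, and the nearest other experiment had 1.18. Aasdhppt (-0.11 ± 0.17), Msantd4 (0.02 ± 0.19) and Kbtbd3 (-0.23 ± 0.37) also did not pass the edgeR test. The pseudogene Gm7390 had 0.694 CPM in positive and 0.774 CPM in negative divisions, and Gria4, a glutamate receptor gene, 0.130 CPM in positive and 0.143 CPM in negative divisions.

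**Figure D4:**
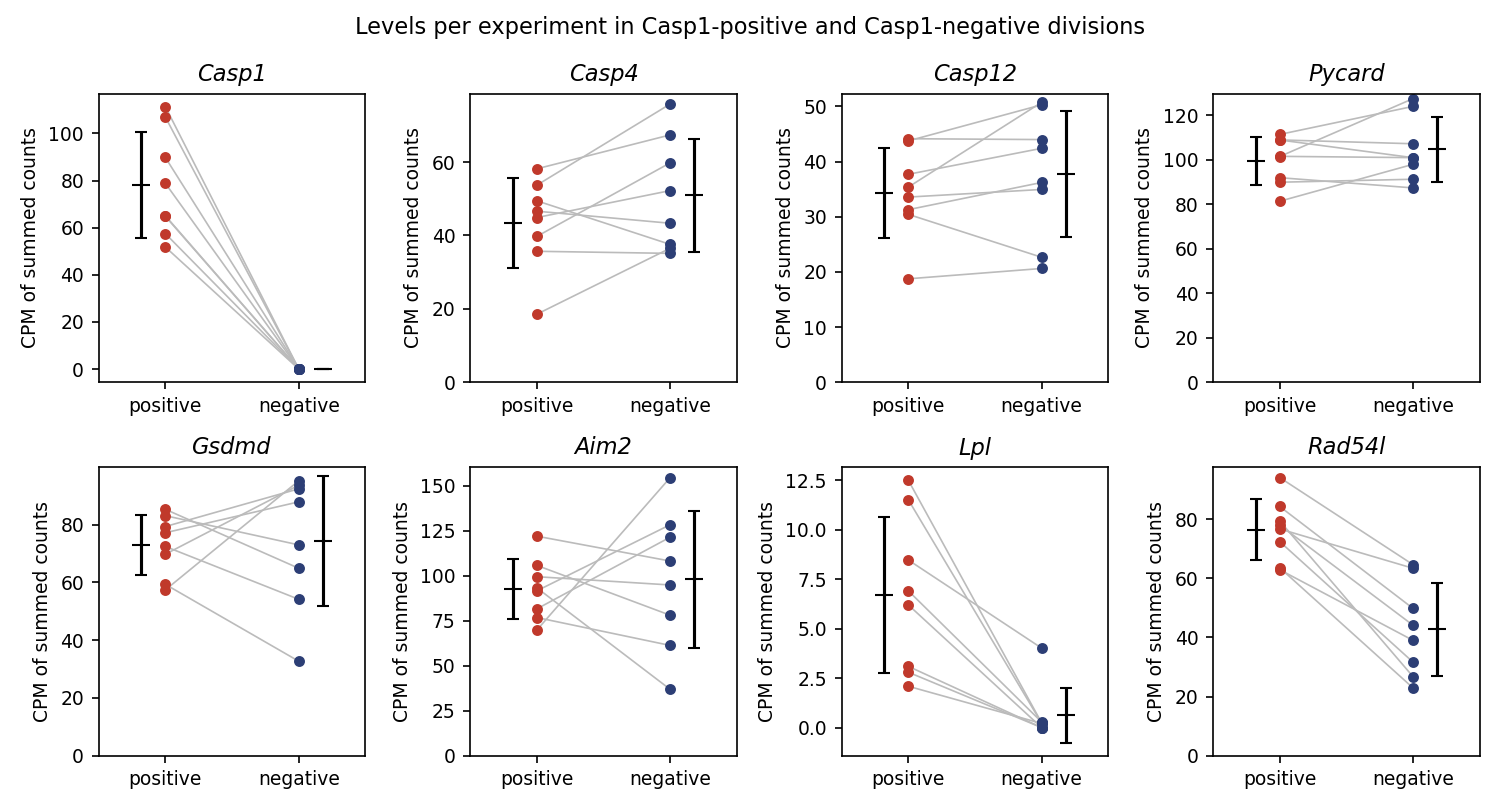
CPM of summed counts per experiment (y axes) in positive (left, red) and negative (right, blue) divisions for Casp1 and 7 other genes, with lines joining the same experiment and bars for mean ± SD over 8 experiments. Casp1 is at or near 0 in negative divisions by the definition of the classes, Casp4, Casp12, Pycard, Gsdmd and Aim2 overlap between the classes, and Lpl and Rad54l are higher in positive divisions in 8 of 8 experiments.

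No inflammasome sensor or adaptor passed the test. Of 20 listed genes 11 were tested, with none at an unadjusted p under 0.05 in either direction, and the median log2 difference was 0.06, beside 0.05 for all genes. Pycard, the adaptor ASC, had 81.3, 101.4 and 111.3 CPM as lowest, median and highest over experiments in positive divisions, against 87.3, 100.83 and 127.4 CPM in negative divisions. Its log2 difference was -0.09 ± 0.09 (95% interval -0.29 to 0.11), so that a 2-fold difference lies outside the interval. Aim2, the sensor of cytosolic DNA, had 69.7, 92.4 and 121.89 CPM in positive divisions, against 36.8, 101.4 and 154.4 CPM in negative divisions, and differed by -0.01 ± 0.22. Ripk2, the kinase of NOD signalling, differed by -0.33 ± 0.21. The NLR sensors were scarce. Nlrp1a had a count in 28.6% of positive cells and 16.7% of negative cells and 1.09 CPM in positive and 0.739 CPM in negative divisions. Nlrp1b had a count in 6.02% of positive cells and 6.67% of negative cells, Nlrp3 in 3.76% of positive and 3.33% of negative cells, and Nlrc4 in 13.2% of positive cells and 9 of 90 negative cells. Nlrp1b, Nlrp3 and Nlrc4 were too low to be tested. Nlrp1a and Nlrp1b are near copies, and the counting could split reads between them.

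Among substrates and effectors 8 of 14 listed genes were tested, with none at an unadjusted p under 0.05 and a median log2 difference of 0.06. Gsdmd had 57.4, 74.8 and 85.3 CPM as lowest, median and highest over experiments in positive divisions, against 32.7, 80.5 and 95.2 CPM in negative divisions, a log2 difference of 0.02 ± 0.16 (95% interval -0.33 to 0.37). It had a count in 99.6% of positive cells and 97.8% of negative cells. Il18 had 13.8 ± 5.0 CPM in positive and 17.4 ± 8.8 CPM in negative divisions (-0.31 ± 0.28). Il18bp, which encodes the binding protein that neutralises interleukin-18, had 8.51 ± 2.51 CPM in positive and 6.21 ± 4.12 CPM in negative divisions (0.62 ± 0.37). Il1b had a count in 3 positive cells and 0 of 90 negative cells. Il1rn and Txnip are listed at 0 in all cells used. Gsdme, a gasdermin cleaved by caspase-3, differed by 0.13 ± 0.14.

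Among 13 genes of the other caspases and their regulators tested in the sums, 1 was higher and none lower at an unadjusted p under 0.05. The list median was -0.02. Over divisions 1 was higher and 1 lower. In the BCL2 family 2 of 10 were higher at that level, Bok (1.02 ± 0.32) and Bbc3 (0.56 ± 0.24), beside 3.08% of all genes, and the list median was 0.06. Over divisions 1 of 10 was higher, beside 2.21% of all genes. Other promoters of apoptosis in the list, such as Bax (0.04 ± 0.12) and Bid (0.08 ± 0.21), did not reach that level. Of 12 genes of interleukin-1 family signalling, 1 was lower, Tab1 (-0.40 ± 0.17), a partner of the kinase TAK1. Of 19 NF-κB factors and targets, Relb was higher (0.81 ± 0.34), and Rel (-0.26 ± 0.10) and Tnip1 (-0.32 ± 0.13), an inhibitor of NF-κB, were lower, and the list median was -0.10. In the sums 3.08% of all genes were higher and 1.4% lower at an unadjusted p under 0.05. None of these list members passed adjustment over all genes.

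In the sums no interferon gene was past an unadjusted p of 0.05 among 34 tested, and the list median was -0.05. Over divisions 1 of 31 was lower at that level, and the median was -0.14. Ifitm3, an antiviral membrane protein, had 316.8 CPM in positive and 376.2 CPM in negative divisions (-0.25 ± 0.13), and Oasl2 differed by -0.35 ± 0.18. Ifi27 is itself often on or off in whole divisions, with 10 CPM or more in both sisters in 69 positive divisions (51.9%) and 24 of 45 negative divisions (53.3%). Its log2 difference was 0.10 ± 0.28. Toll-like receptors and nucleic acid sensors (12 tested, median 0.10), GBP and IRG GTPases (9 tested, median 0.09), MHC class I (13 tested, median -0.07) and MHC class II (6 tested, median -0.05) likewise had no member at an unadjusted p under 0.05 in the sums. Without experiments 69 and 73 the median of toll-like receptors and nucleic acid sensors was -0.07. Over divisions 1 of 8 genes in that list was lower, beside 2.63% of all genes, and 1 of 9 GTPases was higher, beside 2.21%.

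No gene of the G1/S transition passed edgeR, although DESeq2 called Rrm2. The G1/S score did not pass over experiments (exact two-sided sign-flip p = 0.21, adjusted p = 0.37), being lower in positive divisions in experiments 69 (-1.14) and 73 (-0.37). Of 28 tested, 7 had an unadjusted p under 0.05 on the higher side and none on the lower, where 3.08% of all genes did so on the higher side. All 28 log2 differences were positive, from 0.05 to 0.94, with a median of 0.24. In the sums 59.6% of all genes had a positive difference. Over divisions 9 of 28 were higher at that level, beside 2.21% of all genes, and the median was 0.32. Leaving out experiments 69 and 73 gave a median of 0.48 in the sums. Rrm2, a subunit of ribonucleotide reductase, averaged 204.4 ± 58.99 CPM in positive and 141.7 ± 56.2 CPM in negative divisions and was higher in 8 of 8 experiments. Its log2 difference was 0.55 ± 0.13 (edgeR adjusted p = 0.98, DESeq2 adjusted p = 0.043 on the same sums). Cdc45 of the replicative helicase was also higher in 8 of 8 (0.52 ± 0.15). Ccne1, which encodes cyclin E1, had 34.5 ± 10.7 CPM in positive and 21.3 ± 14.96 CPM in negative divisions (0.89 ± 0.30). Detected genes per cell were higher on the same side in 7 of 8 experiments, and their part in this was not tested. With G1/S and G2/M scores in the model over divisions, the list median was -0.01, as that model removes the score made of these genes.

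Mitosis genes varied between experiments and fits. All 34 G2/M genes had a positive difference in the sums, beside 59.6% of all genes. Their median was 0.37, with none at an unadjusted p under 0.05. However, over divisions the median was -0.04, and without experiments 69 and 73 it was 0.03 in the sums. In experiment 69 the 1 negative division had no Plk1 count, where positive divisions had 172.03 CPM. Plk1, a mitotic kinase, was at 10 CPM or more in both sisters in 58 positive divisions (43.6%) and 18 of 45 negative divisions, and its log2 difference was 0.38 ± 0.52. Mki67 differed by 0.38 ± 0.50. Of 18 quiescence genes 3 were lower at an unadjusted p under 0.05 in the sums, beside 1.4% of all genes, and 1 over divisions, beside 2.63%. In the sums they were Socs2 (-0.63 ± 0.20), a brake on cytokine signalling, and the transcription factors Klf6 (-0.36 ± 0.13) and Klf2 (-1.09 ± 0.42), with a list median of 0.08 in the sums and -0.06 over divisions.

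No HSC identity gene passed adjustment. Of 31 tested, 2 had an unadjusted p under 0.05, both higher in positive divisions, beside 3.08% of all genes. The list median was 0.05. Mecom had 1562 ± 406.3 CPM in positive and 1400 ± 422.3 CPM in negative divisions (0.15 ± 0.07), and Lmo2, a haematopoietic transcription cofactor, 6.25 ± 5.01 CPM in positive and 1.29 ± 1.39 CPM in negative divisions (2.44 ± 0.85). Hlf had 389.2 CPM in positive and 388.6 CPM in negative divisions. Procr (-0.10 ± 0.18), Cd34 (-0.05 ± 0.11), Ly6a (-0.19 ± 0.12) and Kit (0.05 ± 0.13), the surface markers, did not pass. Vwf, which marks platelet-biased HSCs in mouse, had 34.6, 68.95 and 146.1 CPM as lowest, median and highest over experiments in positive divisions, against 9.13, 40.2 and 213.04 CPM in negative divisions. Its log2 difference was 0.76 ± 0.38, at 1.61 in run 4 and -0.53 in run 5, and it was at 10 CPM or more in both sisters in 39.1% of positive and 31.1% of negative divisions.

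Markers of other cell types gave no gene past adjustment. Megakaryocyte and platelet markers had 11 tested members, none at an unadjusted p under 0.05, with a median of 0.38 in the sums and 0.14 over divisions, and summed levels of 667.0 to 1219 CPM in positive and 639.6 to 907.8 CPM in negative divisions. Without experiments 69 and 73 their median in the sums was 0.11. Erythroid markers (5 tested, median 0.34), myeloid markers (5, median 0.04), macrophage and dendritic markers (3, median 0.05) and lymphoid markers (3, median 0.75) likewise had no member at that level in the sums. Over divisions 1 of 4 erythroid and 1 of 3 lymphoid markers were higher, beside 2.21% of all genes. In that fit 1 of 3 macrophage and dendritic markers was lower, beside 2.63%. Among 11 mast cell and basophil markers 2 were tested, and Cpa3, a mast cell protease, had 4.45 ± 2.91 CPM in positive and 1.09 ± 0.67 CPM in negative divisions and was higher in 8 of 8 experiments (log2 difference 1.97 ± 0.55). The defining markers Mcpt4, Tpsb2, Fcer1a and Cma1 are listed at 0. Of 6 stroma and endothelium markers tested, Pdgfrb was higher (2.10 ± 0.85) and Vim, which encodes the filament protein vimentin, lower in 8 of 8 experiments (-0.27 ± 0.09). In that list 1 was higher and 1 lower at an unadjusted p under 0.05, beside 3.08% and 1.4% of all genes. The part of these genes in the other results was not tested.

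The remaining lists had medians from -0.10 to 0.03, beside 0.05 for all genes. Of all genes tested in the sums, 3.08% were higher and 1.4% lower at an unadjusted p under 0.05. Lysosome hydrolases (30 tested) had a median of 0.03 with 1 higher and 2 lower at an unadjusted p under 0.05, and lysosome membrane genes (22 tested) a median of -0.01 with 1 higher. Activation and progenitor genes (13 tested) had a median of -0.05 with 1 lower, Dach1 (-0.38 ± 0.17). Glycolysis (17 tested, median 0.02) had 1 lower, and stress and immediate early genes (18 tested, median -0.03) had Dnajb1 as the 1 lower member. Ribosome biogenesis (22 tested, median 0.01), ribosomal proteins (24, median -0.06), oxidative phosphorylation (23, median 0.00) and S100 proteins and galectins (12, median -0.10) had none in the sums. Over divisions 2 of 22 ribosome biogenesis genes were higher, beside 2.21% of all genes. In that fit 2 of 11 S100 proteins and galectins and 1 of 24 ribosomal proteins were lower, beside 2.63%. All 24 ribosomal protein differences were negative, from -0.18 to -0.00058, while 59.6% of all genes had a positive difference. By run the list median was -0.12 in run 4 and 0.02 in run 5. The share of ribosomal protein counts per cell was higher in positive divisions in 2 of 8 experiments.

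**Figure D5:**
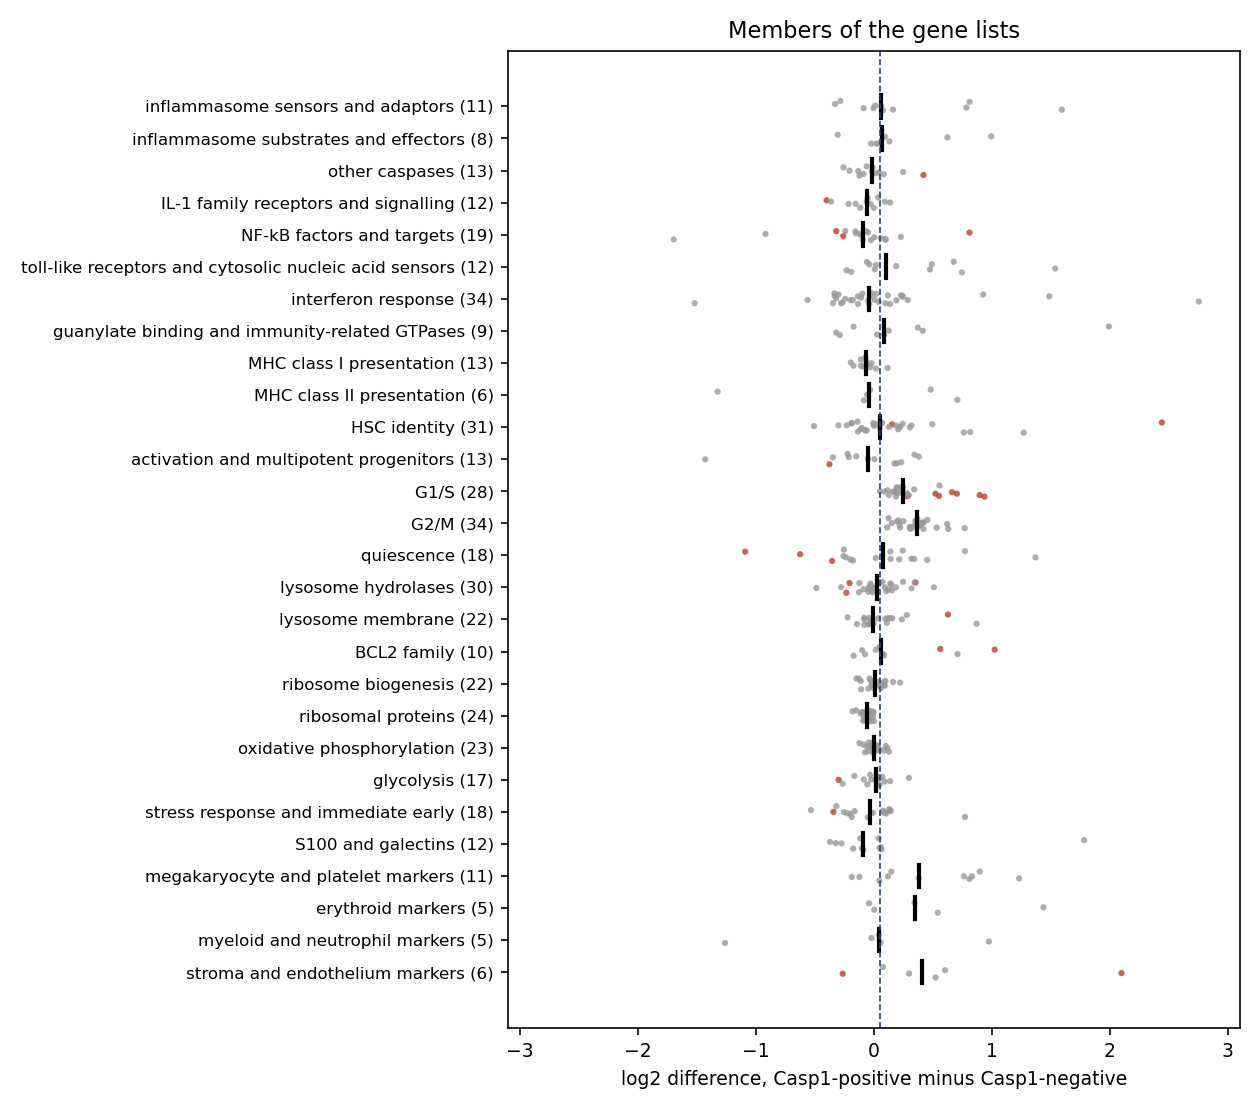
Log2 difference, positive minus negative (x axis), of each tested member (points) of the gene lists with at least 5 tested members (y axis, number tested in brackets), with points in red at an unadjusted p under 0.05, black bars for list medians and a dashed line at the median of all genes, 0.05. G1/S genes lie to the right with 7 of 28 in red, G2/M genes to the right with none, and inflammasome lists around the line.

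Mixed divisions allowed the contrast between sisters of 1 mother cell, in cells outside both classes. Of 8676 genes none passed edgeR (0.0%), and 1.96% of them were at an unadjusted p under 0.05, with 1.58% of all tested genes higher in the Casp1-positive sister. With the division as block on single cells 0 genes passed and 3.13% were at that level. With 14 divisions the error was large, and 1391 genes (16.03%) had a 95% interval within 2-fold. Atp13a2, a lysosomal ATPase, led with 2.02 ± 0.45 (edgeR adjusted p = 0.9999). Casp4 differed by -0.81 ± 0.60, Casp12 by 1.31 ± 1.06, Pycard by 0.25 ± 0.38, Aim2 by 1.32 ± 0.60 and Rad54l by 0.36 ± 0.76, none past the test. Lpl was too low in these cells to be tested.

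Lysosome inheritance was compared within each class. High against low daughters gave 0 genes past edgeR among 12210 in positive divisions (0.0%), with 477 at an unadjusted p under 0.05 (3.91%), and 0 among 10401 in negative divisions (0.0%), with 400 at that level (3.85%). The difference between the classes in this contrast, an interaction term, gave 0 of 12374 (0.0%), with 625 at an unadjusted p under 0.05 (5.05%). Without a count filter the interaction again gave 0. A test of whether the class difference itself differed between sequencing runs, over divisions, gave 0 of 11725 genes in edgeR (0.0%), with 2.75% at an unadjusted p under 0.05.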

How the data were processed

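Smart-seq2 libraries of 474 single HSC daughters were used. The deposited tables hold counts, raw reads per gene and cell with no normalization by the authors, and the submitters' processing notes name featureCounts of Subread 1.5.0 and SAMtools. The aligner was not given in the sources used here, nor was the build. All 55450 gene identifiers matched GENCODE M21 on GRCm38. Values of another type (unit: other) in the authors' deposited metadata give experiment, movie, position, colony, run, plate and lysosome inheritance of each cell. Another 171 count columns of no listed sample were not used. Of 55542 features, 92 spike-ins were left out of totals. Each cell had 76735 to 2444858 counts. Smart-seq2 carries no molecular identifiers. Intervals on shares are binomial over divisions, which share cultures and plates, so they cover counting error only.

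Sisters were joined by movie, experiment, position and colony, which gave 203 divisions with 406 cells, 133 of them positive (266 cells) and 45 negative (90 cells). Casp1 set the classes and was removed before p-values were adjusted. Counts were summed per experiment and class and tested with edgeR 4.0.16 in R 4.3.3, using TMM, filterByExpr and the quasi-likelihood test with a block for experiment and Benjamini-Hochberg adjustment at 0.05. A companion fit used sister sums per division on genes seen in 20% of cells. Library measures were compared by exact two-sided sign-flip permutation tests over experiments. Tables and figures were made in Python 3.11.15 (pandas 2.3.3, numpy 2.4.6, matplotlib 3.10.9, scipy 1.17.1). The fits were also run on simulated counts with no experiment effect and with independent divisions. Such counts cannot check how the fits behave when divisions share a culture.

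Genes named are the 12 higher and 12 lower with the smallest p among genes seen in 20% of cells, up to 4 members of each of 31 lists by p, and a fixed set of inflammasome, stem cell and cell cycle genes. Genes within 1000000 bases of Casp1, Jag2, B3galnt1, Cdc6, Mcm5 and Atp13a2 were added after their values were seen, and some genes the rule names are not reported here. The classes, lists and tests were chosen with earlier results of these data known. Alternatives were DESeq2 1.42.0, voom from limma 3.58.1, no TMM factors, no count filter, no block, plate block, added covariates, each run, other Casp1 thresholds, cells thinned to 300000 counts, deeper divisions and leaving out each experiment.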

Additional observations from a re-analysis of the deposited data

Results flagged for a closer look

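In 8 experiments, 1 experiment stood apart from the other 7 in the log2 difference between positive and negative divisions (CPM plus 1) for 9 of 65 genes looked at, and chance alone marks about 1 in 20 such groups. Experiment 69, with 1 negative division, stood apart for Plk1 (7.43, nearest other 1.04), Mki67 (5.92, nearest other 0.92), Pdgfd (3.42, nearest other 1.18), Il1b (0.60, nearest other 0.27) and Shmt1 (-0.10, nearest other 0.42). Experiment 73, with 2 negative divisions, stood apart for Phkb (0.15, nearest other -0.21). Experiment 68 stood apart for Arhgap18 (-0.00044, nearest other -0.27), experiment 74 for Nlrp3 (1.02, nearest other 0.12) and experiment 77 for Gria4 (-0.48, nearest other -0.07). Il1b, Nlrp3 and Gria4 were too low to be tested.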

How the results depend on the processing

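In the sums per experiment 0 genes passed under every alternative other than DESeq2, which gave 21 (0.172% of genes tested), 20 higher and 1 lower, 4 of them in under 20% of cells. The cause was not tested. Leaving out each experiment gave 0 genes each time, with 3.65% to 5.42% of genes at an unadjusted p under 0.05, and leaving out experiments 69 and 73 together, an alternative chosen after seeing the data, gave 0 with 6.92%. The fit over divisions called 1 gene, or 0.797% of genes when those in 5% of cells were admitted (71 higher and 53 lower), and 95.97% of these calls were genes in under 20% of cells. It called 0 genes with no experiment block, 0 in run 4 alone and 0 in run 5 alone, and 1 with plate as block, with depth, with cell cycle scores and with voom. High against low daughters in negative divisions gave 4 genes (0.0181%) without the count filter, an alternative chosen after seeing the data. At 20 CPM 56.2% of divisions were positive, and at 50 CPM 29.1%, or 59 divisions. Of the named genes tested in the sums, 98 (59.4%) kept their direction in every alternative. The experiment, shared by both classes, paired the sums in edgeR and in the sign-flip tests.

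Only 45 negative divisions in 8 experiments limit these comparisons, and 1 or 2 of them carry experiments 69 and 73. Values of sparsely detected genes rest on few cells.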
